A study of Homo sapiens and Mus musculus with 14 samples.

Results

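The genes described here are 10 keratins by which breast pathology tells luminal from basal epithelial cells: the luminal KRT8, KRT18, KRT7 and KRT19, and the basal KRT5, KRT14, KRT17, KRT6A, KRT16 and KRT15. They were chosen by name, as 10 of 19974 protein-coding genes, and a peak was assigned to them when it touched a gene body or the 10 kb on either side. That gave 2 of 39537 peaks in SMARCAL1 knockout clone 1, 1 of 34572 peaks in SMARCAL1 knockout clone 2 and 5 of 64806 peaks in control cells. All 3 groups are MDA-MB-436, an established human breast adenocarcinoma line, and each knockout group is a single clone of it. The assay was ATAC-seq, in which a transposase inserts sequencing adapters where DNA is open, with 3 libraries of clone 1, 2 of clone 2 and 3 of control cells, which the labels call biological replicates. Clone 1 and control belong to batch 1 and clone 2 to batch 2, so a difference of clone 2 cannot be told apart from one of its batch. The labels state no treatment and do not say how the gene was disrupted. SMARCAL1 encodes an annealing helicase that acts at stalled replication forks, and the comparison asked how its loss alters chromatin accessibility. The B16F10 mouse melanoma samples were not analysed here.

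Keratins form the intermediate filaments of epithelial cells. A filament is built from pairs of a type I and a type II keratin, and which pair a cell makes marks its lineage and state. The type II genes lie together on chromosome 12, with the type I gene KRT18 at their edge, and the other type I genes lie together on chromosome 17.

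Sequence was at hand for 1 annotated start each of 2 of the 10 genes, KRT5 and KRT8, and neither of these starts carried a peak in any of the 3 lists. The KRT8 start lies inside the annotated span of the gene, which has other transcripts, so it does not speak for every start of KRT8. The 250 bases before each start are shown to set keratin starts without a peak beside that of DSP, the desmosomal plaque protein that anchors keratin filaments, whose start carried a peak in every list. They come from RefSeq, build GRCh38.p14. KRT5 is read from the minus strand of chr12:52520395-52520644, KRT8 from the minus strand of chr12:52926470-52926719 and DSP from the plus strand of chr6:7541421-7541670. Capitals mark CpG dinucleotides.
KRT5: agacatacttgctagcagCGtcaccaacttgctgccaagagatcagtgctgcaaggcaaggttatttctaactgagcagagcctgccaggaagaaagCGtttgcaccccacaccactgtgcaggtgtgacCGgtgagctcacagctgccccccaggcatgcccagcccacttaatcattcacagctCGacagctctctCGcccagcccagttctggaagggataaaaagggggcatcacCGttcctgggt
KRT8: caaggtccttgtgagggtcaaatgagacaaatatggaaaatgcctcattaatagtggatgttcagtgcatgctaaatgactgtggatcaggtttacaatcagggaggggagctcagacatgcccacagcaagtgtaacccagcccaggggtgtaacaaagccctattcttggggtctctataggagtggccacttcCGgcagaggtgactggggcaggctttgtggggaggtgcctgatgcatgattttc
DSP: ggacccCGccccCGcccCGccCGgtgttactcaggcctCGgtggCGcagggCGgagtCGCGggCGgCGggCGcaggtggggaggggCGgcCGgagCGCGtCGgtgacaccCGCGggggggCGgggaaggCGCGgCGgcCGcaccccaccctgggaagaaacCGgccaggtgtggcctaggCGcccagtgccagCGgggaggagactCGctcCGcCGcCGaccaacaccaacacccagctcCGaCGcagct

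The sequences differ in CpG content. KRT5 has 6 CpGs and 56% G and C, KRT8 has 1 CpG and 50.4% G and C, and DSP has 33 CpGs and 78% G and C. The peak over the DSP start scored 5.59 in clone 1, 11.7 in clone 2 and 9.04 in control. These scores are −log10 p values from the peak calls the authors deposited, which depend on depth and settings and are used only to rank peaks within a list. Nearest to the window of 300 bases around the KRT5 start, the lists had a peak 70.1 kb away in clone 1, 276 kb away in clone 2 and 19.3 kb away in control. For this KRT8 start these distances were 79.4 kb, 79.4 kb and 21.1 kb.

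Of 5 motifs searched on both strands of these 250 bases, none was found in KRT5 or KRT8. The AP-1 motif TGANTCA stands in 5.36% of 22156 promoters of protein-coding genes, the AP-2 motif GCCNNNGGC in 23.4%, the Sp/KLF motif GGGCGG in 53.7%, the TATA box TATAAA in 9.00% and the NF-kB motif in 1.78%. DSP held the Sp/KLF motif 7 times. A match or its lack describes these letters only.

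Of the 10 keratins, 3 had a peak in the gene body or within 10 kb in clone 1, 1 in clone 2 and 5 in control. No peak was called in any list at KRT19, KRT5, KRT14, KRT6A or KRT15. Over all protein-coding genes, 28.7% lacked such a peak in clone 1, 39.4% in clone 2, 17.9% in control and 15.1% in all 3 lists. Most of these keratin genes are short, and short genes had fewer peaks. Of 5658 genes under 10 kb, 47.0% had none in clone 1, 60.3% in clone 2, 34.6% in control and 29.9% in any list. The 8 keratins of that length lacked a peak in 6 cases in clone 1, 8 in clone 2, 5 in control and 5 in all lists. With 8 genes, some of them neighbours, these counts lie above the shares of short genes, but with a single merged list per group there is no spread between replicates to set them against, and no test is given.

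**Figure D1:**
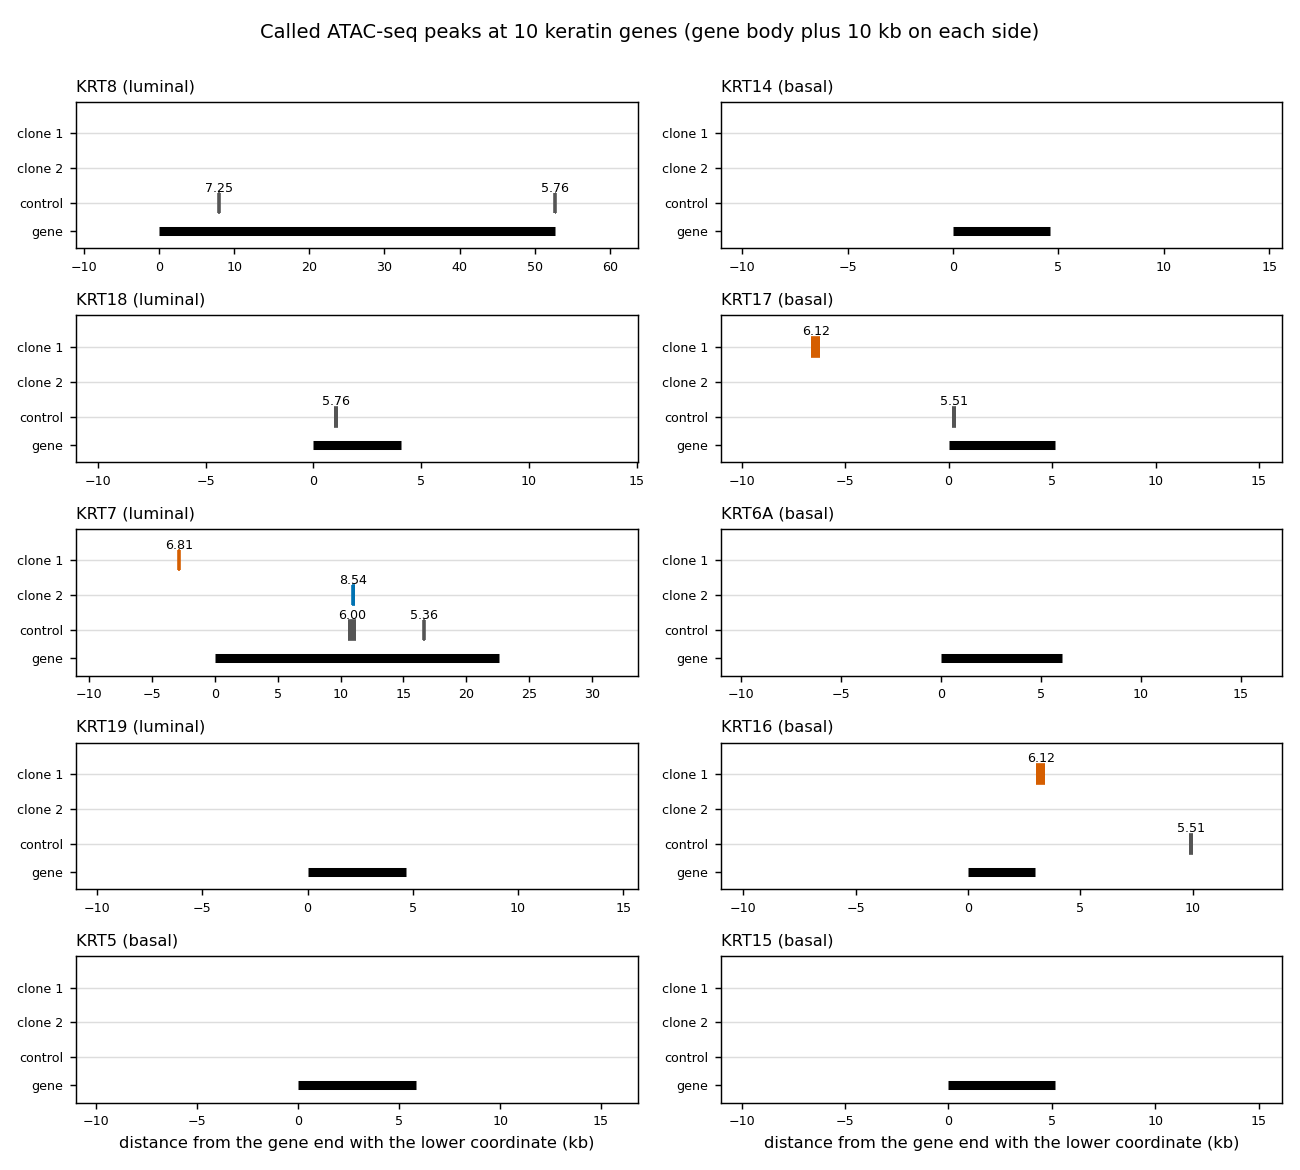
Called peaks at each keratin gene, with distance from the gene end of lower coordinate in kb on the horizontal axis and 1 row each for clone 1, clone 2 and control. Ticks stand for peaks, drawn with a minimum width, the number above each is its score (−log10 p), and the black bar is the gene; KRT19, KRT5, KRT14, KRT6A and KRT15 have no peak in any row, and only KRT7 has a peak at one place in 2 rows.

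Among the luminal keratins, KRT8 and KRT18 encode the pair of simple epithelium and are neighbours. Clone 1 and clone 2 had no peak at either gene, and control had 2. The stronger control peak (chr12:52905044-52905313) lay inside the annotated span of KRT8, 7.85 kb from its lower end, with a score of 7.25. KRT8 has several annotated transcripts whose starts the gene table does not give, so whether this peak lies at one of them was not settled. The weaker control peak (chr12:52949800-52950017, score 5.76) spanned the upper end of KRT8 and lay inside KRT18, 0.945 kb from its lower end. It counted for both genes. The peak nearest to KRT18 was 53.2 kb away in clone 1 and in clone 2, beyond the upper end of the gene.

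KRT7, a type II keratin of glandular epithelium, was the one keratin with a peak in every list, though not at one place. A peak in the middle of the gene was called in clone 2 (chr12:52244138-52244385, score 8.54) and in control (chr12:52243875-52244494, score 6.00). The clone 2 peak lay wholly within the control peak and covered 40% of it. The control score has the decimals of a mean over at least 3 calls, whereas the other 4 control scores and the clone 1 scores have those of a single call. In clone 2 the decimals were read more coarsely, so its score may also be a mean. Clone 1 had no peak there but one of 177 bp at 2.74 kb outside the lower end of KRT7, the side on which this gene starts (score 6.81), where neither clone 2 nor control had any. A further control peak inside the gene (chr12:52249783-52249992, score 5.36) was absent in both clones. KRT19, a type I keratin of luminal cells, had its nearest peak 20.6 kb away in clone 1, 160 kb in clone 2 and 19.5 kb in control.

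Of the basal keratins, 2 of 6 had a peak in clone 1, 0 in clone 2 and 2 in control. In clone 1 and control these were KRT16 and KRT17, which are neighbours and share their peaks. Both are type I keratins induced in stressed and proliferating epidermis. The clone 1 peak (chr17:41612818-41613218, score 6.12) lay 51 bp outside the upper end of KRT16, the side on which this gene starts, and 6.22 kb from KRT17. The control peak (chr17:41619603-41619795, score 5.51) lay 161 bp inside the lower end of KRT17, the side on which that gene ends. The 2 peaks were at different places, and neither was found in another list. KRT16 and KRT17 have 6 and 8 pseudogene entries in the gene table, 6 and 7 of them also on chromosome 17, so reads here may have been shared with copies; the sources used here do not say how the authors placed such reads.

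KRT5 and KRT14, the pair that defines basal cells of the breast and epidermis, had no peak in or near them in any list. The nearest peak to KRT5 was 70.3 kb away in clone 1, 270 kb in clone 2 and 19.5 kb in control. For KRT14 the distances were 25.9 kb, 101.8 kb and 32.7 kb. KRT6A, a type II keratin of wound repair, had its nearest peak 90.4 kb, 243 kb and 44.2 kb away in clone 1, clone 2 and control. KRT15, a type I keratin of basal keratinocytes, had its nearest at 29.98 kb, 170 kb and 28.9 kb. For each of these 4 basal genes the nearest clone 2 peak was the farthest of the 3 lists, and clone 2 has the shortest list with the narrowest peaks.

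The next question was whether control peaks at the keratins were found again in the knockout clones. Of the 5 control peaks, 5 were absent in clone 1 (95% exact binomial interval of the share 47.8 to 100%), against 57.9% of all control peaks. In clone 2, 4 were absent (28.4 to 99.5%), against 57.1%, and the same 4 were absent in both clones, against 46.7%. The intervals cover counting error only and include the shares over all peaks. They treat peaks as independent, although windows of neighbouring keratins overlap in part. With 50 kb on either side of the genes in place of 10 kb, the intervals no longer included the shares over all peaks. Given that overlap, this is a description and not a test. Of the 15 control peaks in that wider window, 15 were absent in clone 1 (78.2 to 100%), 14 in clone 2 and the same number in both clones (68.1 to 99.8% each). At the rates of their score deciles, 2.96 of these 15 would be found in clone 1, where 0 were, and 2.78 in clone 2, where 1 was. The exact Poisson intervals of these ratios of found to expected peaks, 0 to 1.25 in clone 1 and 0.00909 to 2.00 in clone 2, include 1. Both clone 1 peaks were absent in control, against 30.7% of all clone 1 peaks, and the single clone 2 peak was found in control, where 11.1% of clone 2 peaks were absent.

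Most control peaks at the keratins scored low. Of the 5 control scores, 4 lay below the control median of 6.26, and the 5 stood between the 24.1 and the 64.4 percentile of their list. The clone 1 scores stood at the 51.6 and 65.1 percentile of the clone 1 list and the clone 2 score at the 19.6 percentile of the clone 2 list. Weak control peaks were seldom found again anywhere. With the rates of their score deciles, 1.29 of the 5 would be found in clone 1, where 0 were, and 1.24 in clone 2, where 1 was.

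For the strongest of them, at KRT8, 10823 control peaks scored within 10%, and 44.9% of these were found in clone 1, 49.1% in clone 2 and 64.4% in at least 1 clone. The KRT8 peak was found in neither. Among the 2721 that were also within 25% of its width, 24.9% were found in clone 1, 34.9% in clone 2 and 46.1% in at least 1. For the KRT8 and KRT18 peak, 32.5% of peaks of like score were found in at least 1 clone, and 16.9% of those with like width too. For the KRT7 peak that clone 2 kept, peaks of like score were found at 24.1% in clone 1 and 23.1% in clone 2, and at 38.0% and 35.7% with like width. For each of the 5 control peaks, fewer than 50% of the control peaks of like score were found in either clone taken alone.

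**Figure D2:**
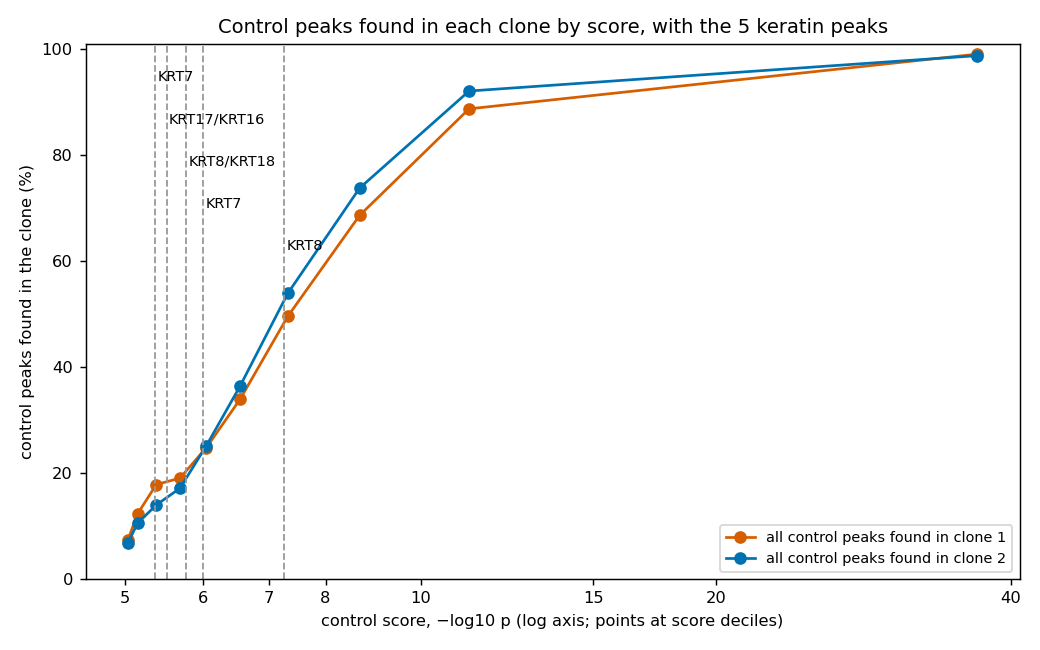
Share of all control peaks found in clone 1 (orange) and clone 2 (blue) in each control score decile, with the score (−log10 p) on a log axis. Dashed lines mark the scores of the 5 control peaks at the keratins, from 5.36 to 7.25, in deciles of which 13.9 to 53.9% were found.

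A peak within 1000 bp of an annotated gene end, called a gene-end peak here, was present at 1 of the 10 keratins in clone 1 (KRT16), at 0 in clone 2 and at 3 in control (KRT8, KRT18 and KRT17). Over all protein-coding genes the shares were 50.4%, 43.2% and 60.9%. None of the 3 control genes had a gene-end peak in a clone. Of all genes with one in control, 21.1% had none in clone 1, 30.1% none in clone 2 and 15.9% none in either; KRT8 and KRT18 count 1 shared peak. KRT16 had one in clone 1 and none in control, as had 5.93% of genes without a control gene-end peak. KRT18 shares its gene-end peak with KRT8 and so has the same pattern. With KRT18 left aside, COL7A1, GRIA1 and HEG1 had the gene-end score percentiles over the 3 lists closest to those of KRT8. They had control scores of 5.76 each and no gene-end peak in either clone. In all, 83 of 19974 genes lay within 1 percentile point of that pattern.

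The other keratins also had few peaks. Of 22 other type II keratins, 0 had a gene-end peak in clone 1, 0 in clone 2 and 1 in control (KRT3, a corneal keratin, score 6.17). Of 23 other type I keratins, none had one in any list. The shares over all protein-coding genes were 50.4%, 43.2% and 60.9%. Of all 55 keratins, 39 had no peak within the gene body and 10 kb in any of the 3 lists. Such a peak was lacking at 15.1% of all protein-coding genes and at 29.9% of those under 10 kb. Windows of neighbouring keratins overlap in part, so these counts are not independent.

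Genes for the partners of keratin filaments had gene-end peaks more often than the keratins, at shares near those of all genes in the clones. Of 16 desmosome and hemidesmosome genes, 8 had a gene-end peak in clone 1 (50%, against 50.4% of all protein-coding genes), 7 in clone 2 (43.8%, against 43.2%) and 12 in control (75%, against 60.9%), and 6 had one in all 3 lists. These 6 were DSP, the plakophilin gene PKP2, the linker gene DST, and the desmosomal cadherin genes DSG2, DSC2 and DSC3. Their scores ran from 5.59 to 8.39 in clone 1, from 10.5 to 17.6 in clone 2 and from 9.04 to 16.98 in control. PKP3, PPL and ITGB4 had one in control alone, with scores of 5.54, 7.52 and 5.10. JUP, the plakoglobin gene beside the type I cluster, had one in clone 2 (7.29) and control (7.65) and none in clone 1. PLEC and ITGA6 had one in clone 1 (6.27 and 8.02) and control (5.98 and 9.25) and none in clone 2. Of 8 other intermediate filament genes, 4 had a gene-end peak in clone 1, 3 in clone 2 and 6 in control. VIM, the filament of mesenchymal cells, scored 7.95, 12.01 and 9.02, SYNM 6.90, 9.78 and 10.04, and the lamin gene LMNB1 10.98, 19.6 and 15.6 in clone 1, clone 2 and control. LMNB2 had one in clone 1 and control, and LMNA and DES in control alone.

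**Figure D3:**
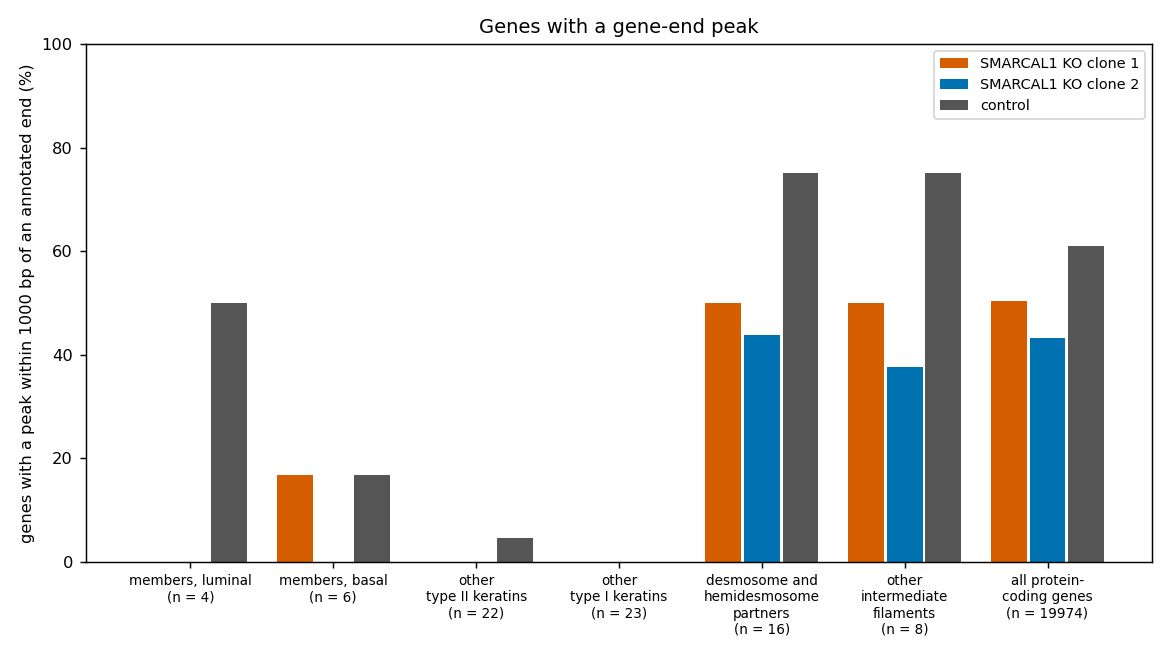
Percentage of genes with a peak within 1000 bp of an annotated end in clone 1, clone 2 and control, for the luminal and basal keratins described here (members), the other keratins, partner genes, other intermediate filaments and all protein-coding genes. The 45 other keratins are near 0 in every list, while partners and other intermediate filaments stand at 37.5 to 75% and all genes at 43.2 to 60.9%.

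Marker genes were read the same way, against the shares over all protein-coding genes of 50.4% in clone 1, 43.2% in clone 2 and 60.9% in control. With 4 or 5 genes to a list, the counts are given as a description. A gene-end peak may lie at either end of a gene and may belong to a neighbouring gene. Gene-end peaks were present at 4, 3 and 5 of 5 mesenchymal markers in clone 1, clone 2 and control, with VIM, FN1 and CDH2 in every list, ZEB1 in clone 1 and control, and AXL in control alone. They were present at 4, 3 and 3 of 5 basal or myoepithelial markers, with EGFR, CAV1 and MYLK in every list, ACTA2 in clone 1 alone and TP63 in none. They were present at 2, 1 and 1 of 5 epithelial markers, EPCAM in every list and CDH1 in clone 1 alone, and at 1, 1 and 1 of 5 luminal markers (FOXA1), with ESR1 and GATA3 in none. For cell types outside the 3 MDA-MB-436 groups the counts were 0, 2 and 2 of 5 leukocyte markers (PTPRC in clone 2 alone, SPI1 in clone 2 and control, CD68 in control alone) and 1, 1 and 1 of 4 melanocyte markers (PMEL). SMARCAL1 itself had a gene-end peak in each list, with scores of 13.1, 13.5 and 16.7, which does not check the knockout.

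Both keratin clusters held fewer peaks per Mb than their chromosomes in each of the 3 lists. The type II cluster, from KRT80 to KRT18 (chromosome 12, 52168996 to 52952906, 784 kb, 27 keratin genes and no other protein-coding gene), held 3 peaks in clone 1, 1 in clone 2 and 11 in control. That is 3.83, 1.28 and 14.03 peaks per Mb, against 12.4, 11.1 and 21.7 over chromosome 12. The adjoining 784 kb beyond KRT18 held 14, 10 and 27 peaks, and the 784 kb before KRT80 held 7, 4 and 14, so that in control the cluster with its 11 was close to the stretch before it. None of the 11 control peaks in the cluster was found in clone 1 and 1 in clone 2, where their score deciles give 2.62 and 2.59. In the stretch before KRT80, 3 of 14 control peaks were found in clone 1 and 3 in clone 2, where 4.30 and 4.32 would be. In the stretch beyond KRT18, 14 of 27 control peaks were found in clone 1 and 10 in clone 2, where 12.76 and 12.999 would be.

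The type I cluster held still fewer peaks. From KRT222 to KRT17 (chromosome 17, 40654665 to 41624575, 970 kb, 28 keratin genes among 62 protein-coding genes) there were 2 peaks in clone 1, 0 in clone 2 and 3 in control. Per Mb these are 2.06, 0 and 3.09, against 10.1, 6.09 and 19.2 over chromosome 17. The 970 kb before it held 11, 4 and 20 peaks and the 970 kb after it 13, 3 and 27. None of the 3 control peaks in the cluster was found in either clone, where their score deciles give 0.591 in clone 1 and 0.571 in clone 2. Of the 20 control peaks before it, 6 were found in clone 1 and 4 in clone 2, where 7.02 and 7.34 would be. Of the control peaks after it, 10 of 27 were found in clone 1 and 3 in clone 2, where their score deciles give 7.64 and 7.76. A stretch of 1021 kb without any control peak took in 18 of the 28 keratin genes. The longest such stretch was 900.1 kb with 24 keratin genes in clone 1, and 1589 kb with all 28 in clone 2. The 5 type I members KRT15, KRT19, KRT14, KRT16 and KRT17 lie after the control stretch, as do all clone 1 and control peaks of the cluster. In clone 1 the stretch without a peak took in 2 of them, KRT15 and KRT19, and in clone 2 all 5. KRT15, KRT19 and KRT14 had no peak within 10 kb in any list.

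**Figure D4:**
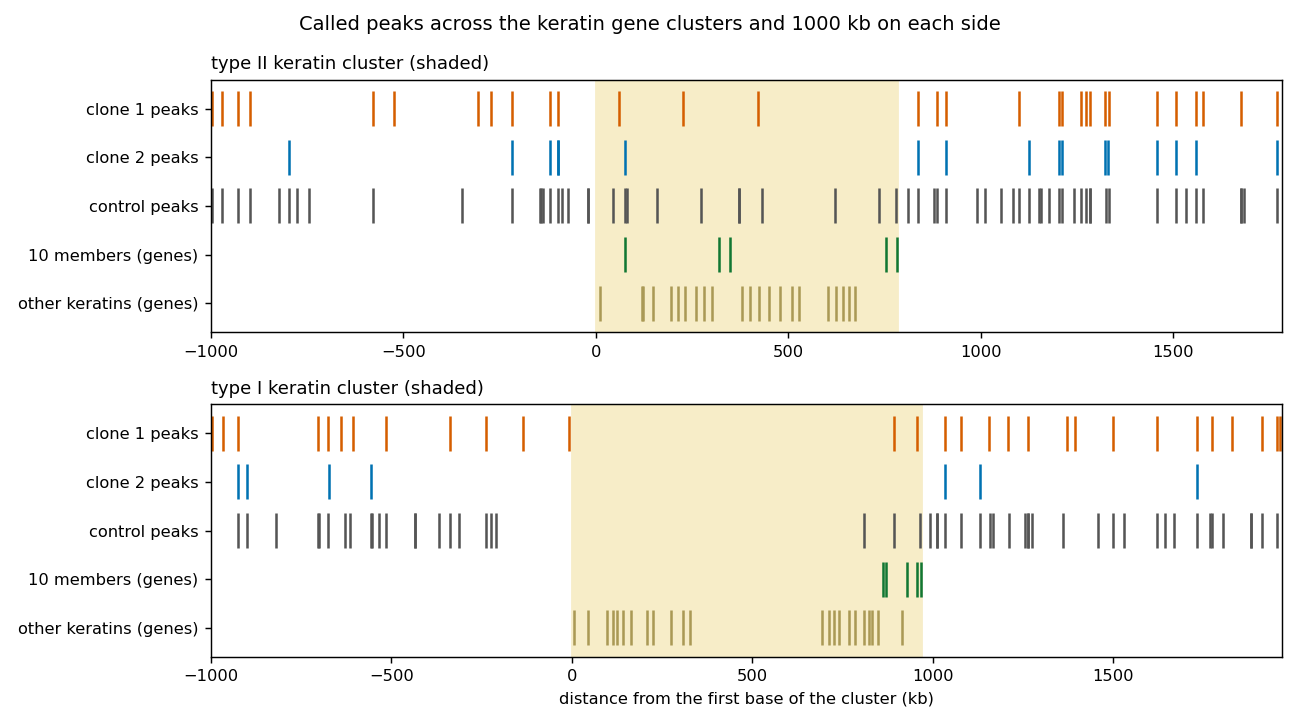
Peak centres of clone 1, clone 2 and control (1 tick each) and keratin genes (members in green, others in brown) across both keratin clusters, shaded, and 1000 kb on each side, with distance from the first base of the cluster in kb. The type I cluster holds 2, 0 and 3 ticks in clone 1, clone 2 and control; in the adjoining stretches of its length clone 2 has 4 ticks before it and 3 after it, where clone 1 has 11 and 13 and control 20 and 27.

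A sequence feature that the choice of genes did not use was shared by the keratin promoters at hand. The promoter table held 38 start sites of 34 keratin genes, and none carried a peak in any list. Only 2 of these genes, KRT5 and KRT8, are among the keratins chosen here, and 32 are other keratins. The feature was therefore not read for the other chosen genes. The CpG count in the 250 bases before these 38 starts had a median of 2 and a range of 0 to 7. Over 22156 promoters the median was 16. The KRT5 start has 6 CpGs and the 1 KRT8 start at hand has 1. Other starts of KRT8 were not read. Promoters with 5 CpGs or fewer had a peak in 5.29% of cases in clone 1, 3.35% in clone 2 and 7.56% in control. With 15 CpGs or more the shares were 66.5%, 55.3% and 79.99%. At the peak rates of their own CpG counts, 2.48 of the 38 keratin starts would carry a peak in clone 1, 1.51 in clone 2 and 3.40 in control, where 0 did in each. Base composition moves with the lack of peaks in this way, and its part in the result was not tested.

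**Figure D5:**
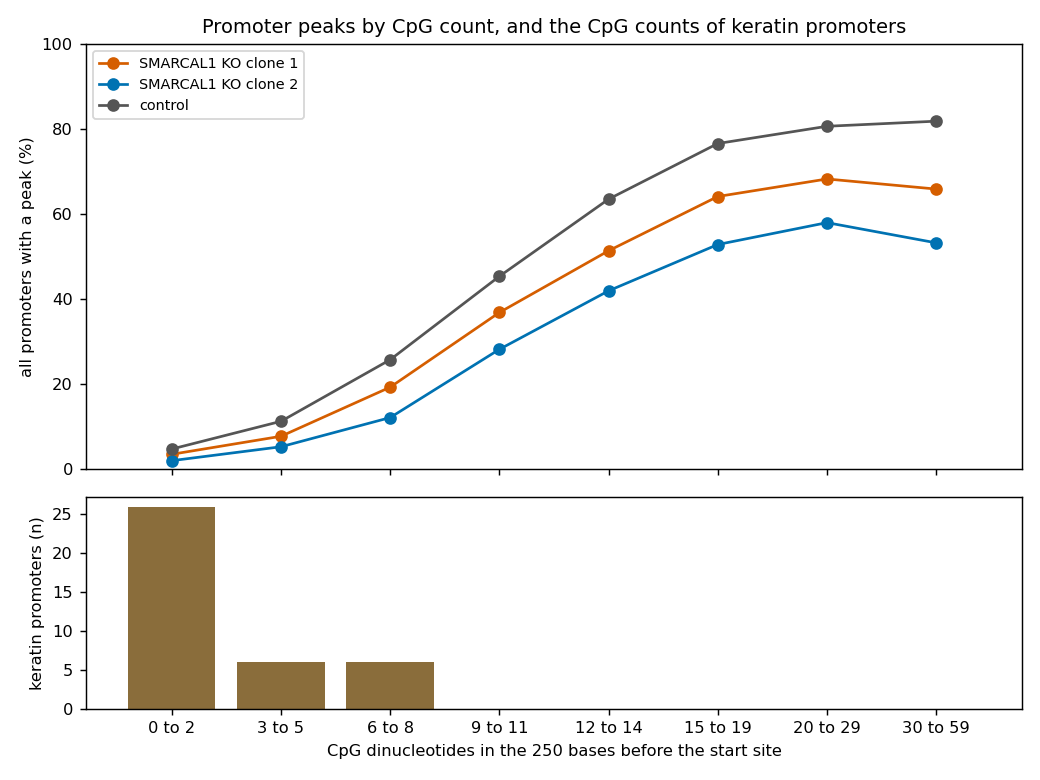
Upper panel: share of all promoters of protein-coding genes with a peak in the 300 bases around the start, by the number of CpGs in the 250 bases before it, in clone 1, clone 2 and control. Lower panel: number of keratin promoters at each CpG count. Of these, 32 of 38 have 5 CpGs or fewer, where few promoters of any gene carry a peak. KRT5 and KRT8, with 1 annotated start each, are the only chosen keratins included, and other starts of KRT8 were not read.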

How the data were processed

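The submitters' processing notes name the tools HISAT2, MACS2 and ChIPseeker and the genome builds hg38 and mm10. Their versions were not found in the sources used here. The deposited data are 3 peak lists, 1 per MDA-MB-436 group, in which replicates had been merged, per the labels. The deposited score has no header. Its most frequent values match −log10 of Poisson tail probabilities at 6, 4 and 6 successive whole pileups in clone 1, clone 2 and control (up to 6 were checked), so it was read as the authors' −log10 p. Median peak widths were 453, 200 and 399 bp, and no score lies below 5. Read depth is unknown.

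Gene positions, without strand, came from a RefSeq table of GRCh38.p14 (chromosomes 1 to 22 and X). The planned start-site peaks were therefore replaced by gene-end peaks. An overlap of 1 bp counted as found. Shares carry Clopper-Pearson 95% intervals (Python 3.11.15, scipy 1.17.1). Overlap counting was tested on simulated data. Positions are printed counted from 1. Genes and lists were chosen with earlier results of these data known. Of the other keratin, partner and intermediate filament genes, those with a gene-end peak that differed between lists were to be named; marker genes and the others were named after their values were seen. Alternative windows, overlaps and thresholds were tried. Peak sequences were not used here.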

Additional observations from a re-analysis of the deposited data

How the results depend on the processing

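Each group is 1 merged list, so no replicate could be left out. Scores from lists of unknown depth limit what absence of a weak peak can show. No paired analysis was possible because the replicates were merged into 1 list per group before deposit. When 50% of a peak had to be covered, the share of control peaks at the keratins absent in clone 2 and in both clones was 100%, and 0 were found in clone 2 relative to the number expected. With peaks above the list median score, and with lists of equal length, 1 control peak was left, at KRT8, so both shares were again 100% and the ratio 0. With lists of equal length the KRT7 peak of clone 2 had no control partner (100% absent), since the control peak was no longer listed. Above the median score no clone 2 peak was left to ask about. Keratins with a gene-end peak numbered 2 in clone 1 within 3000 bp, and 0 in control above the median score or at equal list length. With 50 kb on either side, the shares of control peaks absent were 100% in clone 1 and 93.3% in clone 2 and in both clones, within the reported intervals. Their own narrower intervals, which treat neighbouring peaks as independent, exclude the shares over all control peaks, which take no account of score. At the rates of their score deciles, the ratios of found to expected peaks were 0 in clone 1 and 0.359 in clone 2. The intervals of both ratios include 1. These and the other values, 40 in all, kept within the interval or 1.5 times the reported value. The reported intervals rest on 5 peaks or fewer and are wide, so most outcomes would have counted as kept. The tally therefore says little about how stable the results are.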

Other observations

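Keratin-associated proteins form the matrix of hair, and their genes lie in part inside the type I keratin cluster. Of 94 such genes, 3 had a gene-end peak in clone 1, 1 in clone 2 and 5 in control, all of them among the 49 genes on chromosome 21, against 50.4%, 43.2% and 60.9% of all protein-coding genes. In the gene body or within 10 kb, 11, 5 and 15 of the 94 had a peak, where 47.0%, 60.3% and 34.6% of protein-coding genes under 10 kb had none. None of the 34 genes on chromosome 17 or the 11 on chromosome 11 had a peak in the gene body or within 10 kb in any list.

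KRT8 and KRT18 have many processed copies elsewhere in the genome: the gene table lists 52 pseudogenes named after KRT8 and 67 after KRT18. Peaks overlapped 7 of the KRT8 copies in clone 1, 0 in clone 2 and 5 in control, and 3, 0 and 5 of the KRT18 copies. Over the 138 copies of all 10 keratins the shares were 7.25%, 0% and 9.42%, against 4.72%, 2.62% and 6.37% of 16458 pseudogenes, whose median length of 716 bp is shorter than the 1403.5 bp of the copies. A peak in more than 1 list was seen at 2 of the 138 copies (1.45%), against 645 of all 16458 pseudogenes (3.92%). In clone 2, 0 of 138 copies had one.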
